A study of Mus musculus with 4 samples.

Results

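*Wt1*, *Tcf21*, *Bnc1*, *Gata6* and *Gata4* encode transcription factors that the data had linked to the epididymal fat depot. They were followed here, as 5 of the 32285 genes counted, through all 4 single-cell libraries of cultured mouse adipose cells. The members were picked because earlier results of these same libraries showed them higher in the epididymal than in the inguinal cultures, so the depot difference below is a description and not a finding. Each condition was 1 library: DFAT cells (dedifferentiated fat cells, obtained when mature adipocytes are cultured and lose their lipid) and cultured SVF cells (the stromal vascular fraction, called ASPCs in the study), each from the inguinal (iWAT) and the epididymal (eWAT) white fat of male C57BL/6J mice on chow diet (CD). The cells were primary cultures, trypsinised, sorted after 7-AAD staining and captured with 10x Genomics 3′ v3 chemistry. No transgene, Cre or added agent distinguished the 4 groups, and the age of the animals behind these libraries and the number pooled per library were not given in the sources used here. A cell was a barcode with 5000 to 75000 UMIs (unique molecular identifiers, each standing for 1 captured transcript), 200 to 7500 genes and under 10% mitochondrial UMIs, and levels were UMIs per 1000000 UMIs summed over the cells of a library (CPM).

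WT1 is a zinc finger factor of the coelomic epithelium and of the mesothelium, the flat cell layer that covers visceral organs and visceral fat. TCF21 is a basic helix-loop-helix factor of visceral mesenchyme, basonuclin 1 (BNC1) is a zinc finger factor found in keratinocytes, germ cells and mesothelium, and GATA4 and GATA6 are zinc finger factors of mesoderm and endoderm that bind GATA motifs. In fat, *Wt1* and *Tcf21* are known as genes of visceral progenitor cells, and epididymal fat, unlike inguinal fat, carries a mesothelial covering. For that reason each member was also given separately for mesothelial-marker cells, defined as cells with a UMI of 3 or more of *Upk3b*, *Upk1b*, *Lrrn4*, *Msln* and *Krt19*.

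The files counted reads on mm10, and positions are given on GRCm38 from the gene annotation. *Wt1* lies at chr2:105126529-105173616 on the plus strand, *Tcf21* at chr10:22817281-22820174 on the minus strand, *Bnc1* at chr7:81966672-81992292 on the minus strand and *Gata4* at chr14:63198922-63271692 on the minus strand. The promoters of *Tcf21* and *Bnc1* are shown. The set of windows used held none for *Wt1* or *Gata4*, and that of *Gata6* is not shown. In eWAT the UMIs of *Tcf21* lay mostly in cells outside the mesothelial markers and those of *Bnc1* mostly inside them. Both promoters shown are RefSeq windows on GRCm38.p6, from 250 bases before to 50 bases after the annotated start. They are read 5′ to 3′ on the gene's own minus strand, at chr10:22820094-22820393 and chr7:81992250-81992549.

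Tcf21: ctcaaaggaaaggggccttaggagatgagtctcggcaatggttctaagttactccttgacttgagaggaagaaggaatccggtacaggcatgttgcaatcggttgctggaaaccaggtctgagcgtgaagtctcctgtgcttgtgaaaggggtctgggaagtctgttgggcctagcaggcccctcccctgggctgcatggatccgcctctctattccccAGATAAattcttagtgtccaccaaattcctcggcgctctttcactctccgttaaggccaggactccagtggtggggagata

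Bnc1: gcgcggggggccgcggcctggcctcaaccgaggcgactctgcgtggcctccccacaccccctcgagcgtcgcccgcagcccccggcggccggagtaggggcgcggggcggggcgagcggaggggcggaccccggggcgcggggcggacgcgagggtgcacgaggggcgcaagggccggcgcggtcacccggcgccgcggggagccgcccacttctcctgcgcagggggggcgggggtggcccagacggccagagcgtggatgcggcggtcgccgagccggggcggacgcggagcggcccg

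Both windows were searched on both strands for 4 short motifs, and capitals mark a match to one of the first 3. The motif AGATAA, of the kind that GATA factors read, matched once in the *Tcf21* window, beginning 31 bases before the start, and was present in 11.2% of all 32851 windows of this length. A second GATA-type motif, TGATAA, which shares its last letters with the first and cannot lie at the same place, was in neither window and in 9.05% of all. Letters of the kind that WT1 binds, GNGTGGGNG, were in neither window and in 14.3% of all. The E-box that helix-loop-helix factors read, CANNTG, was in neither window and in 72.3% of all. The *Bnc1* window thus held none of the 4 motifs. The GC content was 53.3% for *Tcf21* and 83.3% for *Bnc1*, against a median of 52.7% over all windows. These matches are descriptions of letters, not binding sites.

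The limits on barcodes left 7629 cells for iWAT DFAT, 6464 for eWAT DFAT, 7424 for iWAT SVF and 6745 for eWAT SVF. Cells held 183664704 to 199357348 UMIs per library, so that 3 UMIs, the floor used for a gene at 0, corresponded to 0.0150 to 0.0163 CPM. Between 91.4% and 98.6% of cells had a UMI of 3 or more of 6 stromal markers (*Pdgfra*, *Pdgfrb*, *Col1a1*, *Col1a2*, *Dcn*, *Lum*). Of each library's cells, 0.579% to 0.756% carried a barcode that was also a cell in another library. Each condition was 1 library and no test was run, and every interval below is a 95% interval for counting error only, exact Poisson for a level, Clopper-Pearson for a share and exact conditional binomial for a ratio. A difference between groups therefore cannot be told apart from a difference between single libraries.

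*Wt1* was an eWAT gene in both kinds of culture. It had 3733 UMIs in eWAT DFAT cells (20.1 CPM, 19.5 to 20.8) and 6875 in eWAT SVF cells (34.8 CPM, 34.0 to 35.6). The iWAT libraries held 24 UMIs in DFAT cells (0.131 CPM, 0.0837 to 0.194) and 3 in SVF cells (0.0150 CPM, 0.00310 to 0.0440). The eWAT level was 154-fold the iWAT level in DFAT cells (103 to 241) and 2313-fold in SVF cells (791 to 11218), the second ratio resting on those 3 UMIs. A *Wt1* UMI was found in 35.3% of eWAT DFAT cells and 47.7% of eWAT SVF cells, but in 0.301% and 0.0404% of the iWAT cells.

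*Tcf21* was likewise almost restricted to the eWAT libraries. The iWAT DFAT and iWAT SVF libraries held 2 and 5 UMIs (0.0109 and 0.0251 CPM), against 773 in eWAT DFAT cells (4.16 CPM, 3.88 to 4.47) and 3748 in eWAT SVF cells (19.0 CPM, 18.4 to 19.6). The eWAT to iWAT ratio was 382 in DFAT cells (106 to 3164) and 756 in SVF cells (324 to 2331). The share of cells with a UMI was 9.85% in eWAT DFAT and 32.2% in eWAT SVF.

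*Bnc1* was low in eWAT DFAT cells and higher in eWAT SVF cells. It had 93 UMIs in the former (0.501 CPM, 0.404 to 0.614) and 1101 in the latter (5.57 CPM, 5.25 to 5.91), found in 0.851% and 6.42% of cells. iWAT DFAT cells held 1 UMI and iWAT SVF cells 18 (0.0903 CPM, 0.0535 to 0.143), so that the eWAT to iWAT ratio was 92.0 in DFAT cells (16.1 to 3674) and 61.7 in SVF cells (38.9 to 105).

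The GATA factors did not share this on-off pattern. *Gata6* (chr18:11052064-11085635 on the plus strand) was present in all 4 libraries, at 25.7 CPM in iWAT DFAT (24.95 to 26.4), 37.6 in eWAT DFAT (36.8 to 38.5), 22.6 in iWAT SVF (21.9 to 23.2) and 50.8 in eWAT SVF cells (49.8 to 51.8). The label of a visceral depot gene therefore holds for *Gata6* only as a ratio, 1.47-fold in DFAT cells (1.41 to 1.52) and 2.25-fold in SVF cells (2.17 to 2.33), since 39.9% and 37.9% of iWAT cells also had a UMI of it. *Gata4* was low throughout, at 0.109 CPM in iWAT DFAT (20 UMIs), 1.08 in eWAT DFAT (201 UMIs), 0.125 in iWAT SVF (25 UMIs) and 1.21 in eWAT SVF cells (239 UMIs). Its eWAT to iWAT ratio was 9.95 in DFAT cells (6.27 to 16.6) and 9.65 in SVF cells (6.38 to 15.2), and at most 2.40% of cells in any library had a UMI.

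**Figure D1:**
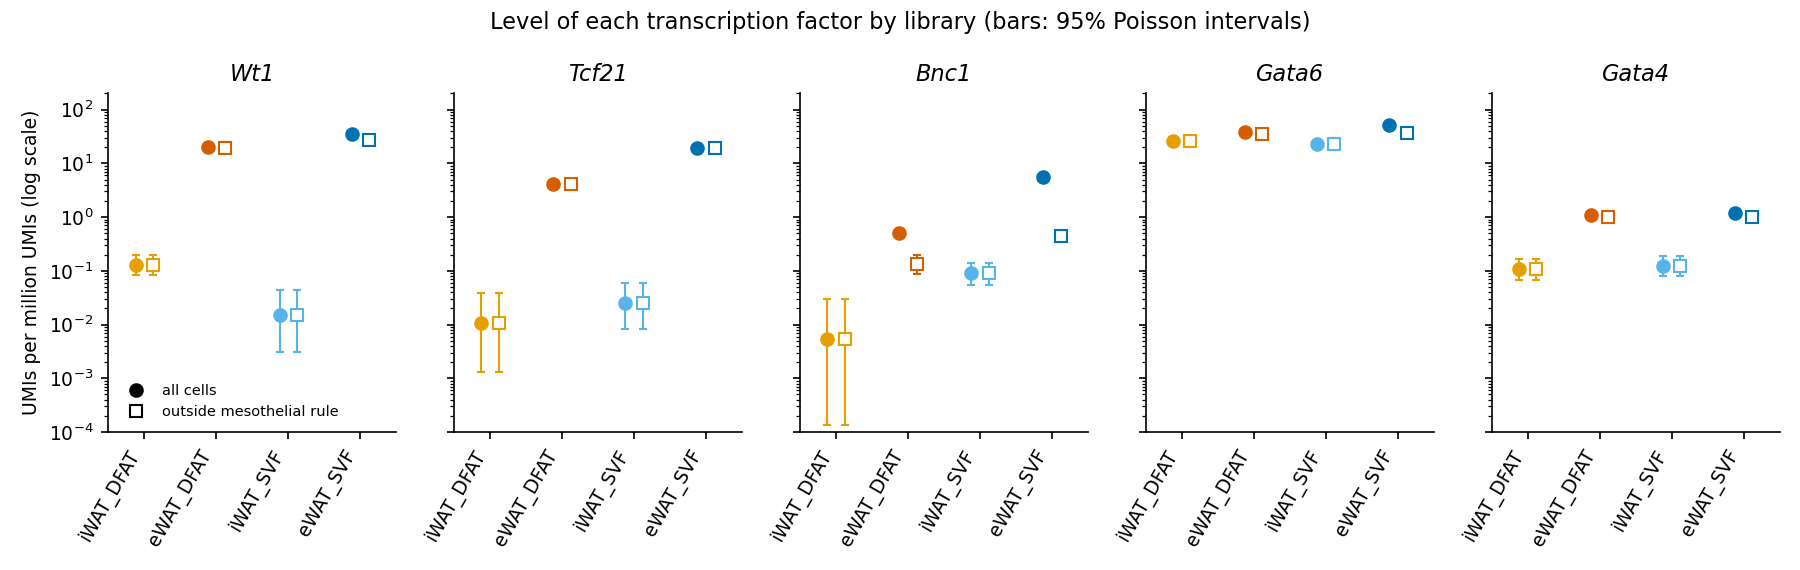
Level of each member in each library, in CPM on a log axis, over all cells (filled circles) and over cells outside the mesothelial rule (open squares), with bars for the 95% Poisson interval of counting error. *Wt1*, *Tcf21* and *Bnc1* lie under 0.2 CPM in both iWAT libraries, *Gata4* lies near 0.1 CPM there, and *Gata6* lies between 22.6 and 50.8 CPM in all 4.

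Against the background of all genes at 1 CPM or more in the higher library, 3 of 4 members tested were at least 4-fold higher in eWAT DFAT than in iWAT DFAT cells (*Wt1*, *Tcf21* and *Gata4*), where 2.22% of 13349 genes were. *Bnc1* missed the 1 CPM minimum there and *Gata6* the 4-fold limit. In SVF cells 4 of 5 members passed, with *Gata6* again the exception, against 1.94% of 13092 genes. With a minimum of 5 CPM, which only *Wt1* and *Gata6* reached in DFAT cells, the count there was 1. The share of all genes is not given at that minimum. The members were chosen on this contrast, so nothing is read from these counts.

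The split by mesothelial markers separated the members. Mesothelial-marker cells numbered 58 of the eWAT DFAT cells (0.897%, 0.682 to 1.16) and 492 of the eWAT SVF cells (7.29%, 6.68 to 7.94), but 0 of the iWAT DFAT cells (a count of 0 allows up to 0.0483%) and 1 of the iWAT SVF cells. In iWAT DFAT cells, *Msln* had no UMI and *Upk3b*, *Upk1b* and *Lrrn4* had 2 each. *Krt19* was the exception among the 5 markers, with a UMI in 58.4% of iWAT SVF cells, and it brought the summed level of the list to 71.3 CPM there, against 5.81 CPM in iWAT DFAT, 10.7 in eWAT DFAT and 84.8 in eWAT SVF. Of the mesothelial-marker cells, 57 of 58 and 488 of 492 also had 3 or more stromal markers, and their median depth was 21971.5 and 21767 UMIs, below the 27480 and 27874 of the other eWAT cells.

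*Bnc1* was the member most concentrated in these cells. They held 73.1% of its UMIs in eWAT DFAT (62.9 to 81.8) and 92.6% in eWAT SVF (90.9 to 94.1), although they held 0.784% and 6.38% of all UMIs. The *Bnc1* level was 46.8 CPM in mesothelial-marker cells and 0.136 CPM in the remaining eWAT DFAT cells, and 81.0 against 0.438 CPM in eWAT SVF. A *Bnc1* UMI was found in 63.8% and 76.2% of mesothelial-marker cells. The share in eWAT DFAT depended on the rule, at 84.9% of *Bnc1* UMIs with 2 or more markers and 16.1% with 4 or more, whereas in eWAT SVF it was 95.0045% and 79.7%.

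*Wt1*, *Gata6* and *Gata4* were also higher in mesothelial-marker cells, but most of their UMIs lay elsewhere. *Wt1* stood at 146 CPM in these cells of eWAT DFAT against 19.1 CPM outside them, and at 147 against 27.2 CPM in eWAT SVF, and the cells held 5.71% and 26.9% of its UMIs. With 4 or more markers asked for, the share in eWAT DFAT was 1.42% for *Wt1*, 1.32% for *Gata6* (6.49% with 3 or more) and 1.49% for *Gata4* (8.46%), and in eWAT SVF the *Gata4* share was 12.1% with 4 or more, 21.3% with 3 or more and 33.9% with 2 or more. *Gata6* stood at 311 against 35.5 CPM in eWAT DFAT and at 267 against 36.1 CPM in eWAT SVF. *Gata4* stood at 11.7 against 0.999 CPM and at 4.05 against 1.02 CPM. The ratios were 7.66 and 5.41 for *Wt1*, 8.78 and 7.42 for *Gata6*, and 11.7 and 3.98 for *Gata4*, in DFAT and SVF respectively.

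*Tcf21* differed from the other 4 members. In eWAT DFAT it stood at 4.13 CPM in the mesothelial-marker cells, and at 4.17 CPM outside them, but the former rested on 6 UMIs in 2 of the 58 cells, 5 of them in a single cell. In eWAT SVF it was lower in these cells, 11.6 against 19.5 CPM, a log2 ratio of −0.75 (−0.997 to −0.51), and 16.1% of them had a UMI. They held 3.90% of its UMIs in that library while holding 6.38% of all UMIs.

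Levels were also given by the number of markers in eWAT SVF cells, and the members did not share one order. *Bnc1* stood at 0.161 CPM in the 5229 cells with no marker, 0.983 with 1, 6.52 in the 118 cells with 2, 54.6 in the 107 with 3, 85.5 with 4 and 91.1 in the 157 with all 5. *Wt1* went from 27.1 CPM with no marker to 39.9 with 2, 119 with 3 and 148 with 5. *Tcf21* went the other way above 2 markers, from 23.6 CPM with 2 to 19.5 with 3, 12.3 with 4 and 5.82 with 5. *Gata4* was highest in the middle, at 0.683 CPM with no marker, 7.52 with 2, 8.39 with 3, 2.82 with 4 and 3.03 with 5, so that the cells with 2 markers, just outside the rule, lay above the 4.05 CPM of the class. On either side of the threshold in eWAT DFAT, the 16 cells with 2 markers had 114 CPM of *Wt1*, 221 of *Gata6* and 23.6 of *Bnc1*, and the 45 cells with 3 markers had 145, 327 and 48.0 CPM.

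**Figure D2:**
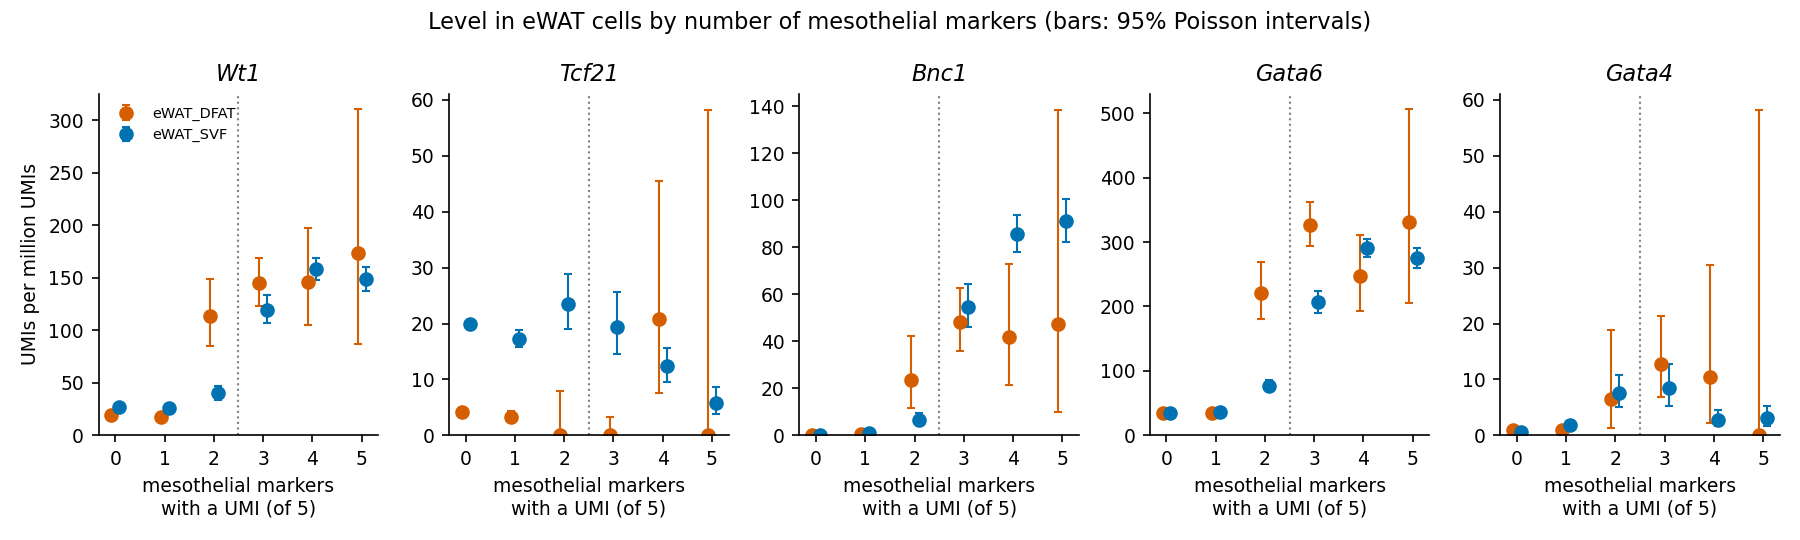
Level of each member (CPM, linear axes that differ between panels) in eWAT DFAT and eWAT SVF cells grouped by how many of the 5 mesothelial markers had a UMI, with 95% Poisson intervals and a dotted line at the limit of the mesothelial rule. In eWAT SVF cells *Bnc1* goes from 0.161 CPM at 0 markers to 91.1 CPM at 5 markers, whereas *Tcf21* goes from 19.8 to 5.82 CPM, and the eWAT DFAT groups with 4 and 5 markers hold 10 and 3 cells.

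Outside the mesothelial-marker cells the depot ratios of *Wt1* and *Tcf21* were nearly the same, with log2 values of 7.19 and 8.58 in DFAT cells and 10.82 and 9.60 in SVF cells. *Gata4* also stayed near its ratio over all cells, at 3.20 and 3.02. In eWAT SVF cells with no marker, however, its level was lower than over all cells outside the rule, as given above. For *Bnc1* the ratio in SVF cells was 4.85 (log2 2.28, 1.53 to 3.10) without the mesothelial-marker cells and 61.7 with them, and in DFAT cells it was 24.9 (4.08 to 1024) without them and 92.0 with them. The eWAT SVF cells outside the rule still included cells with fewer than 3 markers. As given above, *Bnc1* was lower in those with no marker than over all cells outside the rule, so 4.85 is not the ratio for marker-free cells. Subtracting free RNA was done over all cells only, where the *Bnc1* log2 ratio went from 5.95 to 5.76 in SVF and from 6.52 to 6.07 in DFAT cells. Whether the *Bnc1* UMIs outside the rule came from free RNA, from doublets or from the cells was not tested. For *Gata6* the ratio in SVF cells was 1.60 without and 2.25 with them, and in DFAT cells 1.38 without and 1.47 with them.

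The second question of the design was whether DFAT cells and SVF cells of a depot differed. In eWAT the DFAT level was lower for *Tcf21* (log2 ratio −2.19, −2.30 to −2.08, or 4.56-fold lower), *Bnc1* (−3.48, −3.80 to −3.17, or 11.1-fold), *Wt1* (−0.79, −0.85 to −0.73) and *Gata6* (−0.43, −0.48 to −0.39). For *Gata4* the interval spanned 0 (−0.16, −0.44 to 0.12). DFAT cells had far fewer mesothelial-marker cells, and outside these the ratio was −0.02 for *Gata6* (−0.07 to 0.03), −1.69 for *Bnc1* (−2.40 to −1.03) and −0.51 for *Wt1* (−0.57 to −0.44). For *Tcf21* it was −2.23 (−2.34 to −2.11), as large as over all cells.

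Within the mesothelial-marker cells of eWAT, the DFAT to SVF log2 ratio of *Wt1* was −0.005 (−0.22 to 0.20). *Bnc1* (−0.79, −1.17 to −0.44) was lower in the DFAT cells of this class, whereas *Gata6* (0.22, 0.08 to 0.36) and *Gata4* (1.53, 0.64 to 2.35) were higher. Most DFAT cells of the class had exactly 3 markers and most SVF cells had more. *Bnc1* and *Gata4* levels varied with the number of markers in eWAT SVF, as given above. Whether the ratios follow from this make-up was not tested. The ratio of *Tcf21* was −1.49 (−2.96 to −0.33), resting on the 2 DFAT cells above. Median-of-ratios scaling, which puts the typical gene at equal level, shifted the eWAT DFAT to SVF comparison by −0.17 and the eWAT to iWAT SVF comparison by 0.11 on the log2 scale. Relative to the first shift, the eWAT DFAT to SVF ratio of *Gata6* was −0.61 over all cells, and the shift itself was larger than the ratio of −0.02 found outside the mesothelial-marker cells.

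In iWAT, *Gata6* was the only member with more than 25 UMIs in either library. Its DFAT to SVF log2 ratio was 0.19 (0.13 to 0.25), or 1.14-fold. *Wt1* was 8.68-fold higher in iWAT DFAT than iWAT SVF cells, on 24 against 3 UMIs (log2 3.12, 1.40 to 5.49). *Bnc1* was lower in iWAT DFAT, on 1 against 18 UMIs (−4.05, −9.43 to −1.39), and the intervals of *Tcf21* and *Gata4* spanned 0.

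Cells were further sorted by markers of other types a fat culture could hold (endothelial, glial, pericyte, macrophage and adipocyte). A class took cells with 3 or more markers of that type and of no other such type, mesothelial included. Stromal markers did not bar a cell from these classes, so its cells could also carry them. The stromal-marker cells were the remaining cells with 3 or more stromal markers. In eWAT, cells of the stromal markers carried 20.03 CPM of *Wt1* in DFAT and 27.8 in SVF, whereas the 145 and 149 cells of endothelial markers carried 3.86 and 7.09 CPM. *Tcf21* in the same classes stood at 4.32 and 19.8 CPM against 0.858 and 7.80 CPM. *Bnc1* and *Gata4* had no UMI in the endothelial-marker cells of any library. Both were low outside the mesothelial-marker cells, so in classes this small that does not place them below the stromal-marker cells. The 142 cells with adipocyte markers in eWAT DFAT had 4.07 CPM of *Wt1* (2.22 to 6.82), 1.16 of *Tcf21* and 39.8 of *Gata6* (33.4 to 47.0), so that *Gata6* there overlapped the 36.1 CPM of stromal-marker cells while *Wt1* did not overlap its 20.03 CPM.

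*Gata6* had a different distribution in iWAT SVF. Its 57 endothelial-marker cells carried 72.3 CPM (57.3 to 89.97), with a UMI in 56.1% of them, against 22.6 CPM in stromal-marker cells. The endothelial-marker cells of the other 3 libraries carried 8.22 to 15.0 CPM, below the stromal-marker cells of their own library. The 139 cells with glial markers in iWAT SVF carried 7.71 CPM (4.41 to 12.5).

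**Figure D3:**
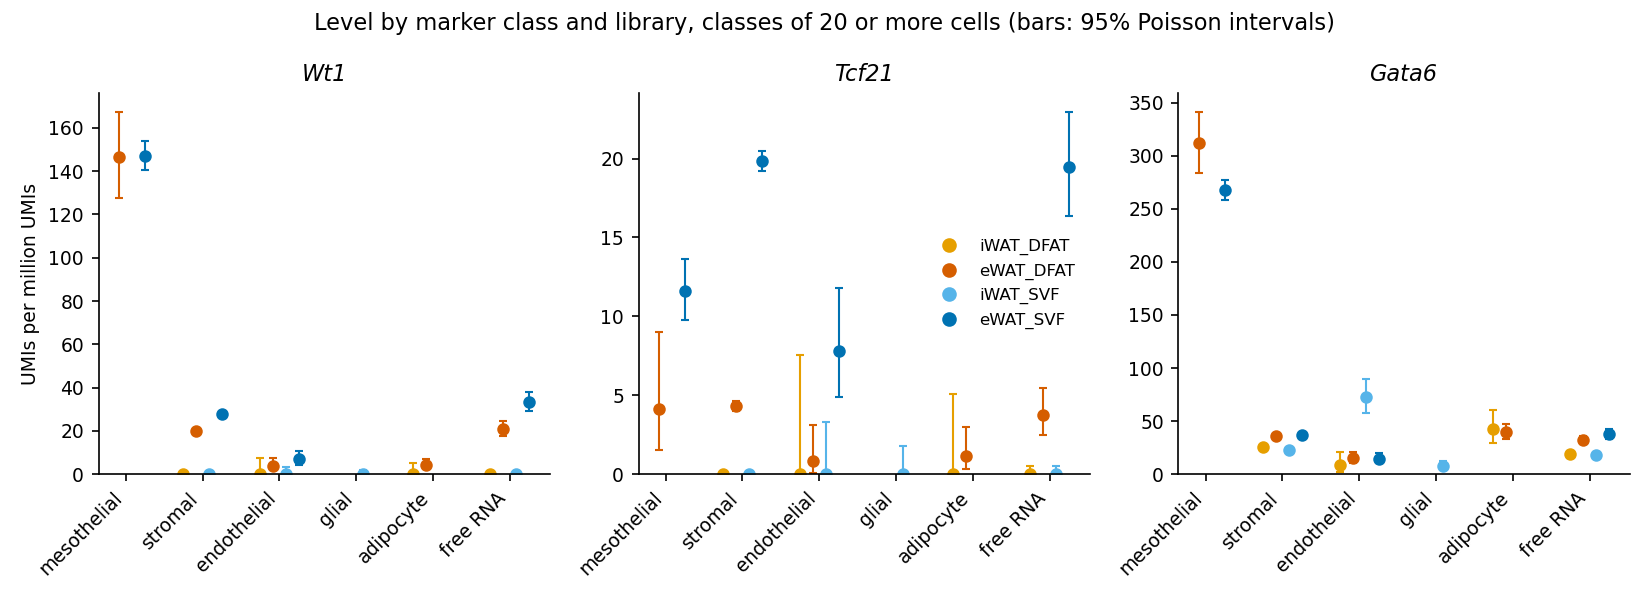
Level of *Wt1*, *Tcf21* and *Gata6* (CPM, linear axes that differ between panels) by marker class and library and in free RNA, for classes of 20 or more cells, with 95% Poisson intervals. In eWAT, *Wt1* is at 20.03 and 27.8 CPM in stromal-marker cells and at 3.86 and 7.09 CPM in endothelial-marker cells, and *Gata6* reaches 72.3 CPM in the endothelial-marker cells of iWAT SVF.

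Free RNA, taken as barcodes with 1 to 100 UMIs, also carried the members, with *Wt1* at 20.9 CPM in eWAT DFAT and 33.5 in eWAT SVF, *Tcf21* at 3.78 and 19.4 CPM, and *Gata6* at 32.0 and 37.5 CPM. In the iWAT libraries it held 0 UMIs of *Tcf21* and *Bnc1*, and *Wt1* stood at 0.138 and 0 CPM. Of the endothelial-marker cells, 4.14% in eWAT DFAT and 8.72% in eWAT SVF had a *Wt1* UMI, at median depths of 11532 and 14947 UMIs. Whether these UMIs came from free RNA, from doublets or from the cells was not tested. The stromal-marker cells, at 28610 and 28484 UMIs, had a *Wt1* UMI in 38.2% and 46.8%. Thinned to 5000 UMIs per cell, which left out no cell, the shares were 1.38% and 2.01% in endothelial-marker cells and 9.32% and 13.2% in stromal-marker cells. Over all cells the thinned shares for *Wt1* were 8.90% in eWAT DFAT and 15.1% in eWAT SVF, and for *Tcf21* 2.04% and 8.38%. Thinned *Gata6* shares were 11.1% in iWAT DFAT, 14.8% in eWAT DFAT, 9.90% in iWAT SVF and 19.5% in eWAT SVF, in the same order as the levels.

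Per cell, a few cells carried many copies. Outside the mesothelial-marker cells 0.656% of eWAT DFAT and 1.76% of eWAT SVF cells had 5 or more *Wt1* UMIs, with maxima of 11 and 20. In mesothelial-marker cells 32.8% and 33.7% had 5 or more, with a median of 3 in both. *Gata6* had a median of 7 UMIs in the mesothelial-marker cells of eWAT DFAT and 6 in those of eWAT SVF.

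Across cells split by depth, *Wt1* in eWAT DFAT kept a level of 16.8 to 20.3 CPM in 4 equal bins of depth outside the mesothelial-marker cells. *Tcf21* in eWAT DFAT was 6.56, 4.58, 3.87 and 3.41 CPM from the shallowest to the deepest bin, and in eWAT SVF 21.3, 24.3, 19.1 and 16.5 CPM, highest in the second. Cells with 3 or more cycling markers had 4.82 CPM of *Tcf21* in eWAT DFAT against 3.27 in cells with none, and the order was opposite in eWAT SVF, 16.7 against 23.8 CPM. *Gata6* differed less between the same classes, at 35.5 against 36.8 CPM and 36.4 against 36.5 CPM.

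Early progenitors of fat carry *Dpp4* and *Pi16*. Few eWAT cells outside the mesothelial-marker class had UMIs of both, 21 in DFAT and 25 in SVF. They carried 52.5 CPM of *Wt1* (34.9 to 75.9) in DFAT and 40.4 (28.0 to 56.5) in SVF, and *Tcf21* at 13.1 and 33.3 CPM. *Bnc1* and *Gata4* had no UMI in them, which in so few cells does not place either below the other cells. The 270 such cells in iWAT DFAT carried 26.8 CPM of *Gata6*, close to the 25.7 CPM of all its cells.

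Pairs of members were met in the same cell to different degrees. At 5000 UMIs per cell and outside the mesothelial-marker cells, *Tcf21* was found in 3.29% (1.96 to 5.15) of eWAT DFAT cells with *Wt1* and 1.93% (1.59 to 2.31) of those without, with overlapping intervals, and in 11.1% (9.01 to 13.5) against 8.24% (7.53 to 9.004) of eWAT SVF cells. *Gata6* was found in 17.6% (14.45 to 21.0) against 14.0% (13.1 to 14.9) and in 18.9% (16.2 to 21.9) against 15.0% (14.1 to 16.0) for the same split by *Wt1*. *Pdgfra*, a general stromal gene and no member, was also found more often in cells with *Wt1*, in 42.6% against 33.3% and in 37.1% against 29.6%. *Gata4* was found in 1.02% (0.443 to 2.01) against 0.238% (0.127 to 0.406) of eWAT SVF cells for this split, and in 0.366% against 0.393% of eWAT DFAT cells, where the intervals overlapped. For the split by *Tcf21*, *Gata6* was found in 11.5% against 14.3% of eWAT DFAT cells and in 17.8% against 15.3% of eWAT SVF cells, with overlapping intervals in both libraries.

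The few iWAT cells with a depot gene were examined member by member. The 23 iWAT DFAT cells with *Wt1* carried 1 UMI each except 1 cell with more. All 23 had 3 or more stromal markers, as did 98.6% of all iWAT DFAT cells. None of them had a UMI of *Upk3b*, *Upk1b*, *Lrrn4* or *Msln*, which had 2, 2, 2 and 0 UMIs in all cells of that library. *Krt19* was in 2 of the 23. The 16 iWAT SVF cells with *Bnc1* and the 19 and 23 iWAT cells with *Gata4* likewise all had 3 or more stromal markers and no UMI of those 4 mesothelial markers. None of the barcodes of these cells was also a cell in the eWAT library of the same culture, and none held a member other than *Gata6* beside its own. The members other than *Gata6* were each in at most 0.310% of the cells of an iWAT library, so the latter was likely in any case. Few cell barcodes were shared at all, 19 between the DFAT libraries and 16 between the SVF libraries.

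*Wt1os*, the antisense neighbour of *Wt1*, starts 19 bases from it on the minus strand (chr2:105076538-105126510) without overlap. It had the same depot order as *Wt1*, with 8.20 CPM in eWAT DFAT and 11.02 in eWAT SVF, and 0.0163 and 0.0301 CPM in the iWAT libraries. In mesothelial-marker cells it stood at 74.95 and 50.3 CPM against 7.67 and 8.34 CPM outside them. The eWAT DFAT to SVF log2 ratios of *Wt1os* and *Wt1* differed. In mesothelial-marker cells they were 0.58 (0.27 to 0.87) and −0.005 (−0.22 to 0.20). Outside these cells they were −0.12 (−0.23 to −0.02) and −0.51 (−0.57 to −0.44). Cells with *Wt1* had *Wt1os* more often than cells without, in 7.86% against 3.41% in eWAT DFAT and 7.03% against 3.89% in eWAT SVF at 5000 UMIs. Whether counting used the strand was not stated. The annotated genes share 0 bases, so a read within one span does not lie in the other. Reads that cross the 19 bases between the starts were not examined.

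The genes most like each member were found by Pearson's r of log2(CPM + 1) over 6 groups, namely the cells outside the mesothelial rule in the 4 libraries and the mesothelial-marker cells of the 2 eWAT libraries, among 11440 genes. With 6 points that share libraries, the r is a description. *Wt1* was most like *Wt1os* (0.990), then *C77080* and *Trabd*. *Tcf21* was most like *Prkaa2* (0.989), the α2 subunit of AMP-activated kinase. The r takes no account of the size of a difference. *Prkaa2* ran from 1.82 to 5.16 CPM over the 6 groups, against 0.0109 to 19.5 CPM for *Tcf21*. *Trabd* ran from 26.7 to 44.1 CPM, against 0.0151 to 147 CPM for *Wt1*. *Bnc1* was most like *Crb2*, *Wdr17* and *Cyp2s1* (0.999 each). *Crb2*, an apical polarity gene of epithelia, stood at 14.4 and 18.6 CPM in mesothelial-marker cells and at most 0.238 CPM in any other group. *Gata6* was most like *Stk26* (0.997) and *Gata4* most like *Mettl24* (0.998). Among the members, *Bnc1* and *Gata6* were most alike (0.986) and *Tcf21* and *Bnc1* least (0.441).

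The other genes of these families and of the coelomic lining were taken as lists. Of the GATA family, 3 of 5 reached 1 CPM in each depot comparison and none was at least 4-fold apart, near the shares of all genes (2.22% higher in eWAT and 2.76% in iWAT for DFAT cells, 1.94% and 1.73% for SVF cells). *Gata2* and *Gata3* are known as factors of preadipocytes. *Gata2* was higher in eWAT (log2 1.24 in both cultures) and *Gata3* lower (−0.63 and −1.03). *Gata5* stayed under 1 CPM with no UMI in either iWAT library. The GATA cofactors *Zfpm1* and *Zfpm2* and the relatives *Bnc2* and *Tcf24* had none past 4-fold either. *Bnc2*, the paralog of *Bnc1*, was lower in eWAT in both cultures (−1.47 and −0.72).

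Of 11 other coelomic and lateral plate factors tested in DFAT cells, 0 were at least 4-fold higher in eWAT, against 2.22% of all genes, and 1 (*Osr2*, −3.12) was at least 4-fold higher in iWAT, against 2.76%. In SVF cells 0 of 12 passed in either direction, against 1.94% of all genes higher in eWAT and 1.73% higher in iWAT. Counts of 0 in lists of this size lie near those shares. *Meis1* was higher in eWAT (1.46 and 1.21) and *Emx2* lower (−1.31 and −1.01).

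Of 13 retinoic acid genes, 2 were at least 4-fold higher in eWAT and 2 in iWAT in each culture. The shares of all genes were 2.22% and 2.76% in DFAT cells and 1.94% and 1.73% in SVF cells. *Aldh1a2*, which makes retinoic acid, stood at 13.2 CPM in eWAT DFAT against 0.419 in iWAT DFAT and at 24.4 against 2.96 CPM in SVF cells. *Crabp1*, which binds retinoic acid in the cytoplasm, went the other way, at 1.56 against 88.3 CPM in DFAT and 1.11 against 112 CPM in SVF cells. The list's median log2 ratio was −0.57 in DFAT and 0.14 in SVF cells, where the medians of all genes were −0.08 and −0.06.

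The list of other mesothelial genes (10 genes, among them the keratins *Krt8* and *Krt18* and the mucin *Muc16*) was described in the same way. Of these, 4 of 7 tested were at least 4-fold higher in eWAT DFAT, against 2.22% of all genes, and 8 of 9 in eWAT SVF, against 1.94%. Outside the mesothelial-marker cells the counts were 1 of 5 and 4 of 7, but the share of all genes is not given for that set of cells. The list's median log2 ratio there was 1.51 in DFAT and 2.05 in SVF cells, against 2.04 and 4.18 over all cells. The medians of all genes outside the mesothelial-marker cells were −0.08 and −0.09. *Bcam* did not differ between the classes beyond counting error, at 38.3 CPM in the mesothelial-marker cells of eWAT SVF and 37.8 CPM outside them (log2 0.02, −0.11 to 0.15). The 5 inguinal comparison genes, developmental factors chosen as the opposite of the members, were at least 4-fold higher in iWAT in 4 of 5 in DFAT cells, against 2.76% of all genes, and in all 5 in SVF cells, against 1.73%. This list, like the others, was chosen with earlier results of these libraries known, so nothing is read from its counts. *Tbx15* stood at a log2 ratio of −7.94 and −7.59, *Shox2* at −7.05 and −7.30, and *Irx1* at −8.33 and −5.00.

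**Figure D4:**
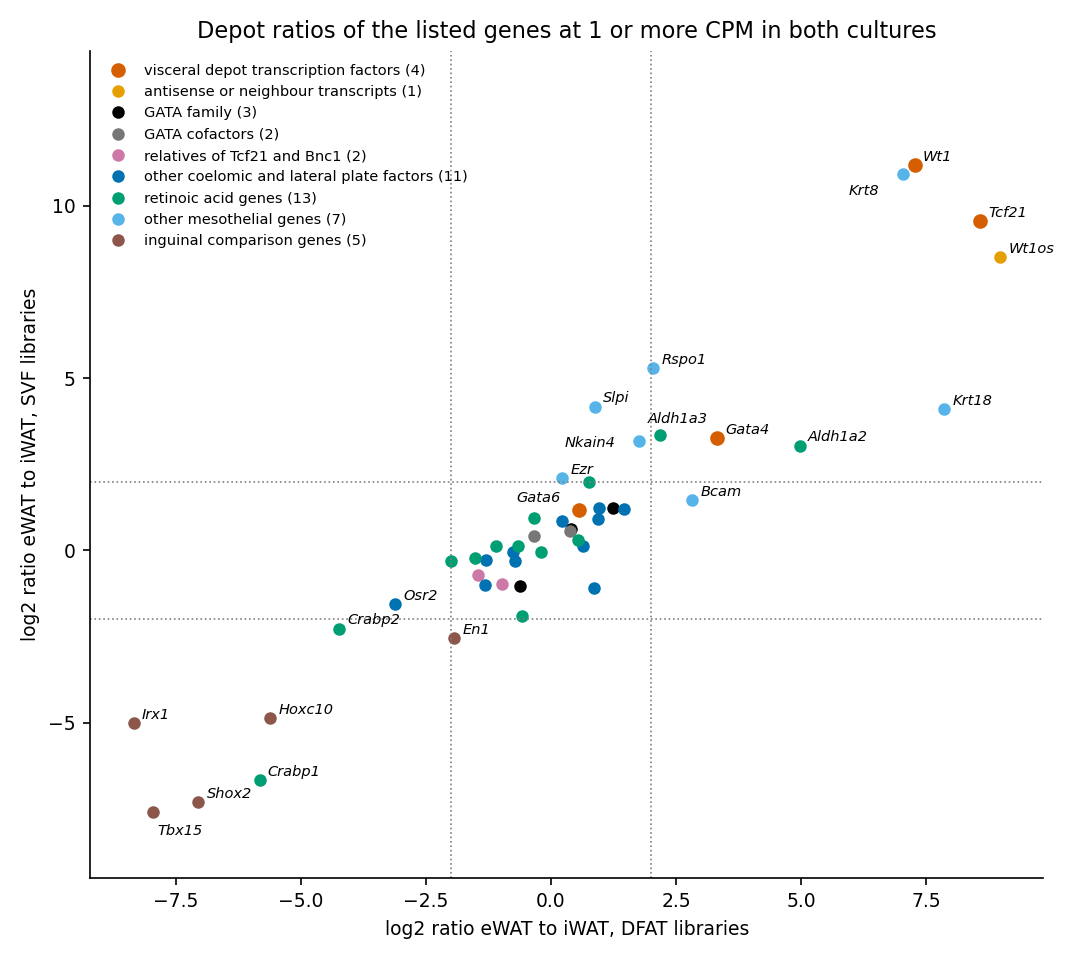
Log2 eWAT to iWAT ratio in DFAT cells (x axis) and in SVF cells (y axis) for 48 genes of the lists and the members at 1 CPM or more in both cultures, each point 1 gene, with dotted lines at 4-fold. *Bnc1* missed that minimum in DFAT cells and is not drawn. *Wt1*, *Tcf21* and *Gata4* lie to the upper right with ratios of 3.27 or more, *Gata6* lies near the centre at 0.55 and 1.17, and the inguinal genes lie to the lower left.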

How the data were processed

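Primary cultured DFAT and SVF cells of iWAT and eWAT were profiled by single-cell RNA-seq, 1 library for each of the 4 conditions. The authors deposited raw UMI counts per gene and barcode for all barcodes, made with Cell Ranger on mm10 with intronic reads included. The submitters' processing notes name Cell Ranger 7.0.0, while the file headers name version 7.1.0 in 3 libraries and only version 4 in iWAT SVF. Use of strand in counting was not given in the sources used here.

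Each matrix was filtered to barcodes with 5000 to 75000 UMIs, 200 to 7500 genes and under 10% mitochondrial UMIs. The study's methods give a lower limit of 500 UMIs, under which 7796 (iWAT DFAT), 6988 (eWAT DFAT), 7843 (iWAT SVF) and 7353 (eWAT SVF) barcodes would be cells. The members and the gene lists were chosen with earlier results of these data known. Named genes were the 5 members, the 3 genes most like each over 6 groups (at 5 CPM or more), and the fixed lists. Counts were summed over cells and scaled to CPM. No test was run, because each condition was 1 library. Intervals (95%) cover counting error only. The analysis was checked on simulated data.

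No doublets were removed in the values given. Scrublet's own threshold marked 0, 0, 1 and 3 cells, under 0.5% of any library, and was judged not to have worked. An alternative left out the 466, 334, 441 and 364 cells with the highest scores. CellBender and DoubletFinder, which the methods name for nuclei, were not run here. Scripts ran in Python 3.11.15 with scanpy 1.11.5 for Scrublet, scipy 1.17.1 for the intervals and matplotlib 3.10.9 for the plots. The alternatives were other cell limits, thinning to 5000 UMIs, median-of-ratios scaling, other marker rules, other count minimums and subtraction of free RNA.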

Additional observations from a re-analysis of the deposited data

Results flagged for a closer look

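*Wt1* and *Gata6* had DFAT to SVF ratios of opposite sign in the 2 depots. For *Wt1* the log2 ratio was −0.79 in eWAT and 3.12 in iWAT, where it rested on 24 and 3 UMIs. For *Gata6* it was −0.43 in eWAT and 0.19 in iWAT, and in eWAT it was −0.02 outside the mesothelial-marker cells. The difference between depots was not tested, since each condition was 1 library.

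All 5 members also had UMIs in barcodes with 500 or more UMIs that failed a limit and entered no comparison above, 1609 such barcodes in iWAT DFAT, 1722 in eWAT DFAT, 1140 in iWAT SVF and 1492 in eWAT SVF. Over the 4 libraries they held 1951 UMIs of *Wt1*, 603 of *Tcf21*, 299 of *Bnc1*, 4077 of *Gata6* and 128 of *Gata4*. The *Wt1* level there was 21.7 CPM in eWAT DFAT and 39.4 CPM in eWAT SVF, against 0.0511 and 0.0281 CPM in the iWAT libraries.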

How the results depend on the processing

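No paired analysis was possible because the labels carry no replicate numbers and each condition was 1 library, and no fit across all 4 libraries was run. Of 405 values recomputed under an alternative, 81 left the counting interval of the value reported or, for a count of members, differed from it by more than 1.5 times, and 0 reversed a ratio whose interval lay on one side of 0. Counts of members past 4-fold have no interval. That in DFAT cells (3) was 4 with no minimum CPM and 2 outside the mesothelial rule. That in SVF cells (4) was 3 at a minimum of 5 CPM and 3 outside the mesothelial rule, and 5 members passed a 2-fold limit instead. The share of all genes is not given for these other settings, so nothing is read from the counts. Outside the rule, *Gata4* in DFAT cells (0.999 CPM, 9.18-fold) and *Bnc1* in SVF cells (0.438 CPM, 4.85-fold) missed the 1 CPM minimum, not the 4-fold limit. A mitochondrial limit of 20%, leaving out the highest doublet scores or shared barcodes, and a marker rule without *Krt19* moved no value beyond its interval. Subtracting free RNA, at an assumed 10% of UMIs, did not either, but this says little, since free RNA held *Wt1* and *Tcf21* near the levels of the cells. Some changes followed by construction. Asking for more UMIs or thinning each cell lowers a share of cells. Asking for more markers can only lower, and for fewer only raise, the share of UMIs in the mesothelial-marker cells. The cause of the remaining changes was not tested. Depth limits the iWAT values of *Wt1*, *Tcf21*, *Bnc1* and *Gata4*, which rest on 1 to 25 UMIs each. At 5000 UMIs per cell some ratios of *Tcf21* and *Bnc1* could not be computed, because iWAT libraries then held 0 UMIs.

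With 2 or more UMIs asked for, the shares of cells in iWAT DFAT, eWAT DFAT, iWAT SVF and eWAT SVF were 0.0131%, 13.3%, 0% and 23.2% for *Wt1*. They were 0%, 1.59%, 0.0135% and 11.8% for *Tcf21* and 0%, 0.402%, 0.0135% and 4.08% for *Bnc1*. They were 13.6%, 27.2%, 14.4% and 31.4% for *Gata6* and 0.0131%, 0.495%, 0.0269% and 0.682% for *Gata4*.

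Thinned to 5000 UMIs, the shares in the same order were 0%, 2.04%, 0% and 8.38% for *Tcf21*, 0%, 0.294%, 0.0673% and 2.88% for *Bnc1*, 11.1%, 14.8%, 9.90% and 19.5% for *Gata6* and 0.0655%, 0.480%, 0.0539% and 0.460% for *Gata4*. For *Wt1* they were 0.0786% in iWAT DFAT, 8.90% in eWAT DFAT and 15.1% in eWAT SVF. The thinned log2 ratio of eWAT to iWAT SVF was 1.32 for *Gata6*, and that of eWAT DFAT to SVF was −0.96 for *Wt1*, −0.66 for *Gata6* and 0.19 for *Gata4*. With the lower limit of 500 UMIs, *Wt1* was found in 32.9% of eWAT DFAT and 43.9% of eWAT SVF cells, *Tcf21* in 29.6% of eWAT SVF cells, and *Gata6* in 51.2% of eWAT DFAT, 35.9% of iWAT SVF and 54.2% of eWAT SVF cells.

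With 2 or more markers, the mesothelial-marker cells of eWAT DFAT held 7.13% of *Wt1*, 84.9% of *Bnc1* and 7.96% of *Gata6* UMIs, and those of eWAT SVF held 29.2%, 95.0045% and 36.6%, with 6.403% of *Tcf21* and 33.9% of *Gata4*. With 4 or more, the shares in eWAT DFAT were 1.42% for *Wt1*, 16.1% for *Bnc1*, 1.32% for *Gata6* and 1.49% for *Gata4*. In eWAT SVF they were 22.4% for *Wt1*, 2.53% for *Tcf21*, 79.7% for *Bnc1*, 28.2% for *Gata6* and 12.1% for *Gata4*. Without the upper gene limit they were 29.2% for *Wt1*, 4.72% for *Tcf21* and 35.8% for *Gata6* in eWAT SVF.

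Median-of-ratios scaling gave log2 ratios of 1.28 for *Gata6* (eWAT to iWAT SVF), of −0.96, −2.36 and −0.61 for *Wt1*, *Tcf21* and *Gata6* (eWAT DFAT to SVF) and of 0.10 for *Gata6* (iWAT DFAT to SVF). Outside the mesothelial rule, eWAT to iWAT ratios were 0.47 for *Gata6* in DFAT and 2.28 for *Bnc1* and 0.68 for *Gata6* in SVF cells. The eWAT DFAT to SVF ratios were −0.51 for *Wt1*, −1.69 for *Bnc1* and −0.024 for *Gata6*. At a minimum of 5 CPM, which only *Wt1* and *Gata6* reached in DFAT cells, 1 member was at least 4-fold higher in eWAT DFAT cells.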

Other observations

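Other factors differed in both directions between the mesothelial-marker cells of eWAT and the cells outside them. The genes named here were chosen after their values were seen. *Gata5*, another GATA factor of mesoderm, stood at 28.2 CPM in these cells of eWAT DFAT against 0.0815 CPM outside them, and at 9.13 against 0.0433 CPM in eWAT SVF. *Hand2*, a helix-loop-helix factor of lateral mesoderm, stood at 72.2 against 0.456 CPM and at 37.6 against 1.68 CPM. Of the coelomic and lateral plate factors, those higher in these cells in both libraries with intervals above 0 were *Hand2*, *Isl1* (log2 6.18 in eWAT DFAT and 7.81 in eWAT SVF), *Emx2* (1.16 and 0.81), *Meis1* (0.28 and 1.08) and *Meis2* (1.07 and 1.08), and those lower in both with intervals below 0 were *Nr2f1* (−2.07 and −2.35), *Tbx18* (−1.59 and −0.88) and *Nr2f2* (−0.79 and −0.71). The *Isl1* values rested on 4 UMIs in the mesothelial-marker cells against 7 outside them in eWAT DFAT, and on 46 against 3 in eWAT SVF. *Osr1* had opposite signs, −0.80 in eWAT DFAT and 1.46 in eWAT SVF. The GATA cofactor *Zfpm2* was abundant in both classes, at 777 against 473 CPM and at 863 against 297 CPM. *Aldh1a3* had the opposite order, at 22.0 against 43.7 CPM in eWAT DFAT and 23.2 against 129 CPM in eWAT SVF, while *Aldh1a2* stood at 59.1 against 12.8 CPM and 109 against 18.7 CPM.

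*Slpi*, a secreted protease inhibitor of epithelia and mesothelium, was not limited to these cells in DFAT cultures. It stood at 146 CPM outside the mesothelial-marker cells of eWAT DFAT and at 93.6 CPM in iWAT DFAT, against 4.98 CPM outside the mesothelial-marker cells of eWAT SVF and 6.80 CPM in iWAT SVF. Over all eWAT SVF cells it stood at 123 CPM. The mesothelial-marker cells carried 3571 CPM in eWAT DFAT and 1855 CPM in eWAT SVF.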
